A study of Mus musculus with 36 samples.

Results

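The mRNA levels of 9 genes that bring fatty acids into fat tissue and join them into triglyceride were examined in epididymal white adipose tissue (eWAT) of mice. Of these, 4 act in uptake (*Lpl*, *Gpihbp1*, *Cd36*, *Fabp4*) and 5 in triglyceride synthesis (*Gpam*, *Agpat2*, *Lpin1*, *Dgat1*, *Dgat2*). They were chosen by symbol from the 24750 genes of the normalised count table, and each symbol had 1 row there.

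Lipoprotein lipase, encoded by *Lpl*, frees fatty acids from the triglyceride of circulating lipoproteins, and GPIHBP1 carries it across the capillary endothelium and holds it at the vessel wall. CD36 promotes entry of fatty acids into the adipocyte and FABP4 binds them in the cytosol. Triglyceride is then built on glycerol 3-phosphate by a fixed order of enzymes. GPAT1 (*Gpam*) adds the first fatty acid and AGPAT2 the next, lipin 1 (*Lpin1*) removes the phosphate to give diacylglycerol, and DGAT1 or DGAT2 adds the last fatty acid.

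The 36 mice were male and fell into 12 groups of 3. They were WT (C57BL/6) or CCL19-KI mice, in which *Ccl19* was inserted at the *Adipoq* locus and so follows the expression of that adipocyte gene. The methods describe the insertion as leaving *Adipoq* intact. The CCL19-KI line was kept homozygous and WT mice were bred separately, so genotype and breeding line cannot be told apart. From 6 weeks of age the mice were fed a normal diet (ND), a 40% high-fat diet (HFD) or a 60% HFD. In the ligatured groups, silk thread was tied around the upper second molars at 14 weeks to induce periodontitis, and the labels of the other groups name feeding alone. For the sequenced eWAT, the design text and the methods of the study name ligatured mice and no others, so the groups called unligatured here rest on their labels alone. All mice were euthanized at 16 weeks and perfused with PBS, and the RNA of eWAT, freed of lymph nodes, was sequenced after rRNA depletion. The comparisons ask how the genotype, the fat content of the diet and periodontitis bear on the fat depot.

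The libraries held 11962228 to 21581595 reads, with a median of 15573273. Values are edgeR-normalised CPM, and a log2 difference is a difference of group means of log2(value + 1). A difference was called where its Benjamini-Hochberg adjusted p, from limma over all 17852 genes tested, was below 0.05. All 9 genes were tested, and the lowest read number of any of them in any library was 108 (*Gpihbp1*).

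Of the 36 libraries, 2 went against their genotype label. In the 17 other WT libraries, *Ccl19* was 0.507 to 4.51 and its copy *Gm2564* had 0 reads in 16, whereas the 17 other CCL19-KI libraries had *Ccl19* of 5.57 to 34.6 and 205 to 1476 reads of *Gm2564*. The unligatured library labelled ND WT replicate 2 had *Ccl19* of 19.2 and 753 *Gm2564* reads. The unligatured library labelled 60% HFD CCL19-KI replicate 3 had *Ccl19* of 0.687 and 0 *Gm2564* reads. Comparisons between groups are therefore given with all 36 libraries under their labels and for the 34 others (17585 genes tested). With 34 libraries, the unligatured ND WT and the unligatured 60% HFD CCL19-KI group hold 2 mice each, so calls there rest on 2 mice on 1 side. *Adipoq*, the locus of the insertion, had a median of 584 (300.1 to 1246) in the 17 other CCL19-KI and of 2354 (615 to 3937) in the 17 other WT libraries. It is not among the adipocyte markers used below, and its part in the differences between genotypes was not tested.

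The tissue label was matched by 11 adipocyte markers such as *Plin1* and *Lipe*, each present in every group. Their summed level was 3152 to 17387 over the libraries. Hepatocyte markers (10 of 10 in the table, led by *Alb*) also reached high sums, from 131 in an unligatured ND WT mouse to 41947 in a ligatured CCL19-KI mouse fed a 40% HFD. Epididymis markers (9) summed to 9553 in 1 unligatured 60% HFD CCL19-KI library and to 6500 in ND WT replicate 2, the library against its label, while all 9 had at most 3 reads in the unligatured and ligatured 40% HFD CCL19-KI and the unligatured 60% HFD WT groups. In bulk tissue, fewer adipocytes and less RNA per adipocyte cannot be told apart.

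In the mouse build GRCm38, with the GENCODE M21 annotation, *Lpl* lies at chr8:68880491-68907448, *Gpihbp1* at chr15:75596628-75599481, *Cd36* at chr5:17781690-17888801, *Fabp4* at chr3:10204088-10208576 and *Gpam* at chr19:55067268-55127238. *Agpat2* lies at chr2:26593057-26604417, *Lpin1* at chr12:16535669-16610966, *Dgat1* at chr15:76502015-76511953 and *Dgat2* at chr7:99153658-99182719. The values count reads over whole genes, so isoforms of a gene cannot be told apart. RefSeq promoter windows on GRCm38.p6 (250 bases before to 50 after a start) were at hand for *Cd36*, *Gpam*, *Agpat2* and *Lpin1*. Those of *Cd36* and *Gpam* are shown because these 2 genes differed between the 60% HFD and the ND and did so in opposite directions. Capitals mark matches, on either strand, to AGGTCA (the core bases bound by nuclear receptors such as the PPARs) or to CCAAT (the box bound by NF-Y). All 3 windows lie on the minus strand and are written 5′ to 3′ along the gene. The *Cd36* window belongs to a start within the gene, not to one at the end of its annotated span.
*Cd36*, chr5:17835847-17836146: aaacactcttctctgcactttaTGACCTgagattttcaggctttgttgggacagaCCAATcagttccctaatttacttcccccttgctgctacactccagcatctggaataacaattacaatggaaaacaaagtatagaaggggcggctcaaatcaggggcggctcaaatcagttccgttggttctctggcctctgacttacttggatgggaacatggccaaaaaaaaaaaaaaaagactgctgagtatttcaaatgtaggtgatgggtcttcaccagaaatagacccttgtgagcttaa
*Gpam*, start at the end of the gene, chr19:55127189-55127488: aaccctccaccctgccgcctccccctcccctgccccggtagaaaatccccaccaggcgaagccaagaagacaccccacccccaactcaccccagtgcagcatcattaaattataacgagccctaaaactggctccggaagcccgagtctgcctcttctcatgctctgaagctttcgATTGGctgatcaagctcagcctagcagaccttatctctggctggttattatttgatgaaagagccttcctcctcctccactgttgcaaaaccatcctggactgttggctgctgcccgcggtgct
*Gpam*, start within the gene, chr19:55099428-55099727: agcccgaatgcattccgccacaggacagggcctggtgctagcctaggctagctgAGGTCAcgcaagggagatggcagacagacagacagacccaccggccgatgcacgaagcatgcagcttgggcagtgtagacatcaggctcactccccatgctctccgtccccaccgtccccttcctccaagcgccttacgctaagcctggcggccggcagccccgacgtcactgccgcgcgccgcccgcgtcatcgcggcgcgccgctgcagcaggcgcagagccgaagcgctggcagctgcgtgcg

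*Cd36* had 1 match to AGGTCA (written TGACCT on the strand shown) and 1 to CCAAT. The *Gpam* window at the end of the gene had 1 CCAAT match (written ATTGG) and its other window 1 AGGTCA match. *Lpin1* had 1 AGGTCA match and *Agpat2* none of either. Of the 32851 promoter windows of the mouse table, 16.3% held AGGTCA and 37.4% CCAAT. The paired form of AGGTCA with a single base between, known as DR1 (0.0396% of windows), the E-box CACGTG (7.15%) and TATAAA (13.6%) were in none of these 5 windows.

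Per kb of exon, the mean level over the 36 libraries ran from 1419 for *Fabp4*, 756 for *Cd36* and 534 for *Lpl* through 208 for *Dgat2*, 78.5 for *Agpat2*, 46.1 for *Lpin1* and 40.2 for *Gpam* to 25.3 for *Dgat1* and 11.8 for *Gpihbp1*. The exons of all *Fabp4* transcripts cover all 4489 bases of the gene in the annotation, which lowers its level per kb. Not per length, the mean level of *Fabp4* was the 8th, of *Lpl* the 11th and of *Cd36* the 20th highest of all genes. *Gpihbp1*, which is made by capillary endothelial cells, was the lowest of the 9 by either measure (8.11 to 50.1 normalised CPM).

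Across single libraries, *Dgat2* varied most, from 112 to 1874 normalised CPM (16.8-fold). *Lpl* ranged from 1026 to 11726 (11.4-fold) and *Agpat2* from 43.8 to 450.2 (10.3-fold). *Fabp4* varied least, from 2009 to 10912 (5.43-fold). The other 5 genes ranged from 6.18-fold (*Gpihbp1*) to 8.50-fold (*Gpam*).

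In the order of group means, the 4 uptake genes had other lowest and highest groups than the 5 synthesis genes. *Lpl* was lowest in ligatured ND CCL19-KI mice (2996 ± 274, SD, n = 3) and highest in ligatured 60% HFD CCL19-KI mice (8813 ± 3364), and the same 2 groups bounded *Cd36* (1571 ± 320 and 3850 ± 1014). *Fabp4* was lowest in unligatured 40% HFD WT mice (4235 ± 1936) and highest in ligatured ones (9724 ± 1420). *Gpihbp1* was lowest in unligatured 40% HFD WT mice (17.8 ± 9.00) and highest in ligatured 40% HFD CCL19-KI mice (40.9 ± 12.1).

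*Gpam*, *Agpat2*, *Lpin1* and *Dgat1* all had their lowest mean in the unligatured 60% HFD CCL19-KI group, which includes a library against its label. Its means were 129 ± 88.8 for *Gpam*, 79.8 ± 48.9 for *Agpat2*, 218 ± 85.6 for *Lpin1* and 42.3 ± 20.5 for *Dgat1*. *Agpat2* (346 ± 143), *Dgat1* (119 ± 30.6) and *Dgat2* (1493 ± 603) were highest in unligatured ND WT mice, the group that includes the other such library. *Gpam* (492 ± 118) and *Lpin1* (904 ± 463) were highest in ligatured ND WT mice. *Dgat2* was lowest in unligatured ND CCL19-KI mice (279 ± 232). The values of groups next to each other in this order overlapped in 11 of 11 cases for 8 genes and in 10 of 11 for *Agpat2*, so the order of neighbours is not beyond their spread.

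**Figure D1:**
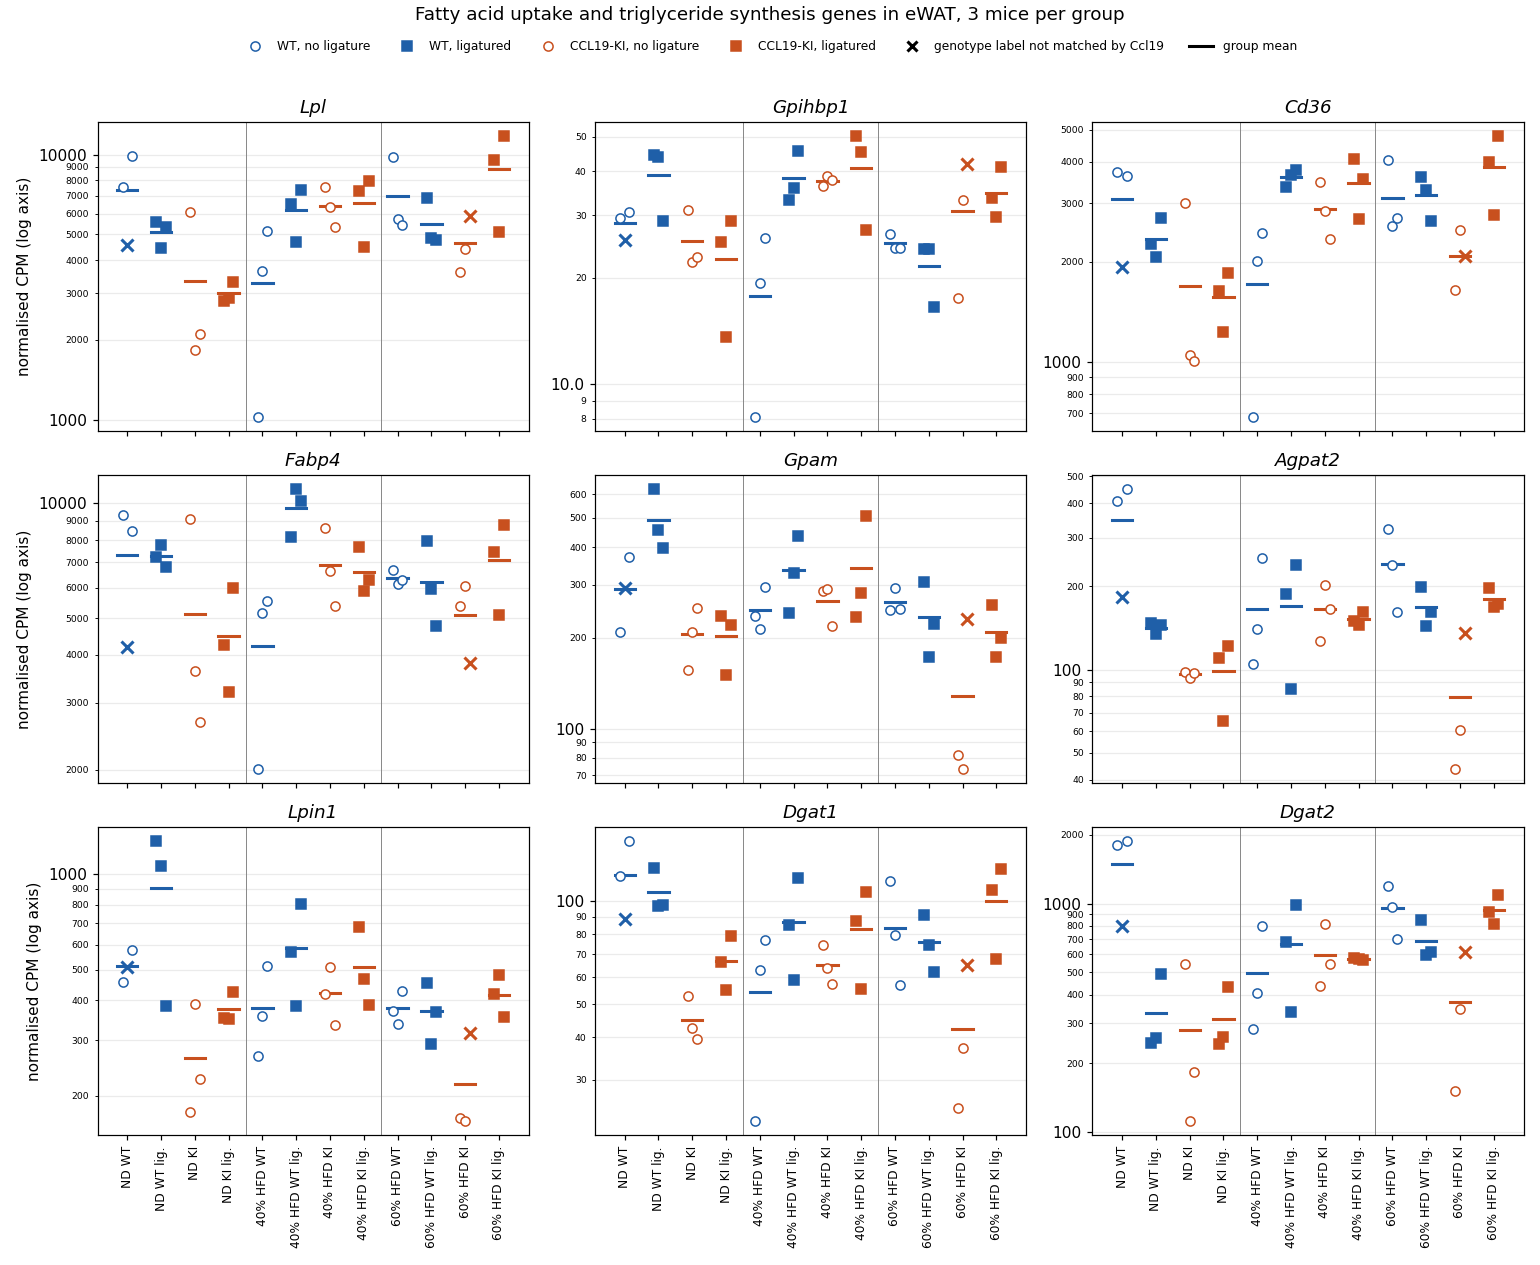
Normalised CPM (log axis) of the 9 genes in each of the 36 libraries, by group (3 mice each). Blue marks WT and orange CCL19-KI mice, open circles mark unligatured and filled squares ligatured mice, bars mark group means and crosses the 2 libraries against their genotype label; *Dgat2* spans 112 to 1874 and *Fabp4* 2009 to 10912.

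Between CCL19-KI and WT mice, averaged over diet and ligature, none of the 9 genes passed the test with all 36 libraries, where 82 of 17852 genes (0.459%) did. The log2 differences (CCL19-KI minus WT) of the 5 synthesis genes lay between -0.64 (*Agpat2*, SE 0.16, adjusted p = 0.0574) and -0.39 (*Dgat1*, adjusted p = 0.186), and their unadjusted p was below 0.05 in all 5 (16.9% of all genes). The edgeR test called 1 of the 9 genes, *Agpat2* (-0.67, adjusted p = 0.0463), and its share over all genes is not given here. The 4 uptake genes ranged from -0.21 (*Fabp4*) to 0.19 (*Gpihbp1*), with adjusted p of 0.469 to 0.792. The median over the 9 genes was -0.39, beside -0.02 over all genes.

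Without the 2 libraries against their label, the 5 synthesis genes were lower in CCL19-KI mice, averaged over diet and ligature. None of the 4 uptake genes passed this test. Of all genes, 7.35% were then called, and 3.82% of all genes were called as lower. The average did not hold in every stratum of these 34 libraries. The log2 differences of the 5 genes were -3.04 to -0.46 (ND) and -2.15 to -1.16 (60% HFD) in unligatured mice. In ligatured ND mice they were -1.27 to -0.06. They were 0.07 to 0.42 in unligatured 40% HFD, -0.18 to -0.02 in ligatured 40% HFD and -0.14 to 0.46 in ligatured 60% HFD mice. The adipocyte marker score (mean log2 level of the 11 markers) had a median of 8.79 in 18 CCL19-KI and 9.21 in 18 WT libraries. These medians include the 2 libraries against their label.

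*Agpat2*, whose enzyme makes phosphatidic acid, showed the largest difference. Its levels (lowest, median and highest) were 43.8, 127 and 203 in 17 CCL19-KI libraries and 85.1, 162 and 450.2 in 17 WT libraries, and the log2 difference was -0.79 (SE 0.13, limma adjusted p = 0.00141). The ranges overlapped, and the CCL19-KI median lay below the WT median. For *Dgat2*, means were 507 ± 281 and 770 ± 488 (log2 difference -0.73, SE 0.20, limma adjusted p = 0.0298).

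*Gpam*, whose enzyme takes the first step, had levels of 73.5, 221 and 507 in CCL19-KI and 173, 292 and 624 in WT libraries, and differed by -0.59 (SE 0.12, limma adjusted p = 0.0086). *Lpin1* was 371 ± 134 against 523 ± 276 (-0.52, adjusted p = 0.0375) and *Dgat1* 67.2 ± 27.1 against 87.8 ± 31.3 (-0.48, adjusted p = 0.0466). The 95% interval of the log2 difference was -0.60 to 0.21 for *Lpl*, -0.57 to 0.11 for *Cd36*, -0.58 to 0.09 for *Fabp4* and -0.14 to 0.41 for *Gpihbp1*.

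With the adipocyte score as a covariate in these 34 libraries, 2 genes passed, and the share over all genes is not given for this fit. *Agpat2* was still lower (-0.55, adjusted p = 0.0238) and *Gpihbp1* was higher in CCL19-KI mice (0.42, adjusted p = 0.0465). Over all libraries under their labels, the score of 9 endothelial markers had a median of 4.05 (3.22 to 4.78) in 18 CCL19-KI and 3.61 (3.17 to 4.08) in 18 WT libraries. The highest CCL19-KI score was that of unligatured 60% HFD replicate 3, which is not in this fit. The part of the endothelial score in the difference of *Gpihbp1* was not tested. *Gpam* (-0.40, adjusted p = 0.0558), *Lpin1* (-0.40, adjusted p = 0.138), *Dgat2* (-0.39, adjusted p = 0.213) and *Dgat1* (-0.05, adjusted p = 0.757) did not pass.

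**Figure D2:**
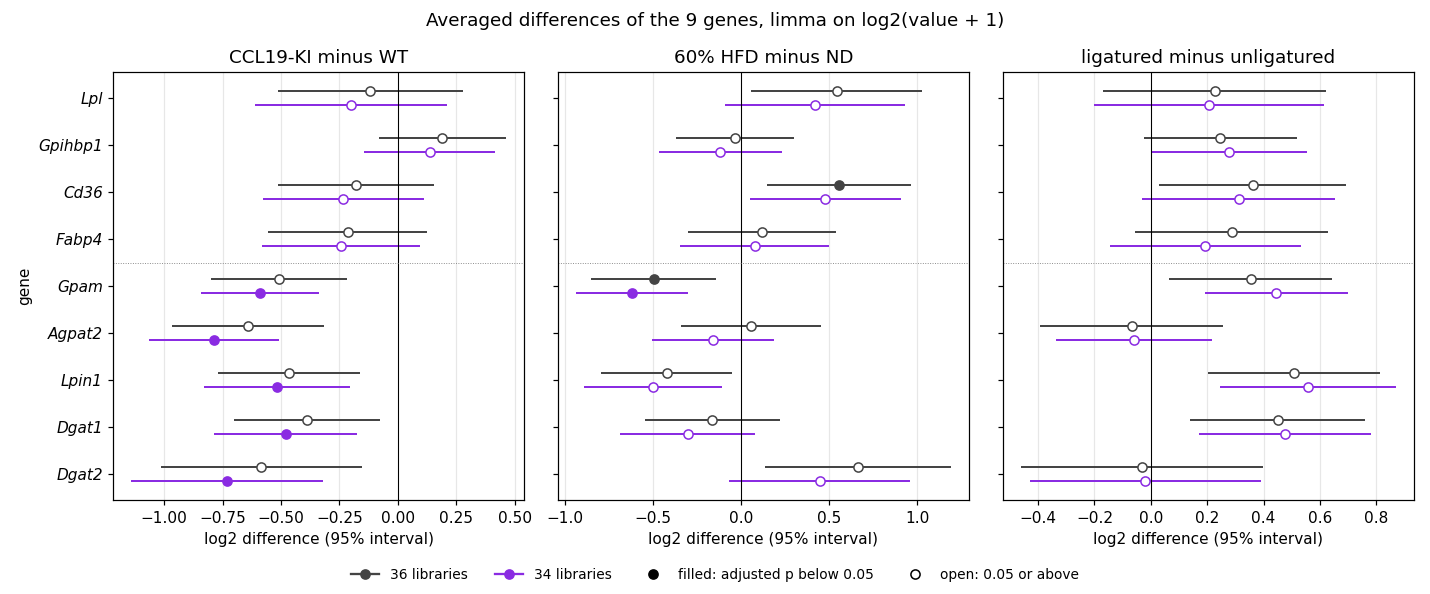
Log2 differences of the 9 genes with 95% intervals (x axis) for CCL19-KI minus WT, 60% HFD minus ND and ligatured minus unligatured mice, each averaged over the other factors. Grey marks 36 and violet 34 libraries, and filled points have a limma adjusted p below 0.05; in the genotype panel the 5 synthesis genes lie between -0.79 and -0.48 in 34 libraries and their points are open in 36.

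Within each diet and with 36 libraries, the calls between genotypes were in unligatured mice fed an ND or a 60% HFD. Over the 6 combinations of diet and ligature, 7 of 54 tests of the 9 genes passed, beside 5.73% over all genes and combinations. By the study's criteria (unadjusted p up to 0.05 with a ratio no nearer to 1 than 1.5 or 0.67) 18 of 54 passed, beside 10.1%. Here and below these criteria were applied to the limma p and log2 difference, whereas the study used edgeR. With 34 libraries 11 of 54 passed (6.78%).

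In unligatured ND mice, 16.6% of all genes were called (9.63% as lower) and 4 of the 9 were, all synthesis genes and all lower in CCL19-KI mice. The same 4 were those whose groups did not overlap, beside 28.1% of all genes. *Dgat2* was 1806, 797 and 1874 in the 3 libraries labelled WT and 544, 112 and 183 in those of CCL19-KI mice. These values did not overlap, and the lowest WT value was that of the library against its label. The log2 difference was -2.64 (SE 0.51, limma adjusted p = 0.0038).

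*Agpat2* was 405, 183 and 450.2 in the WT and 97.7, 93.0 and 97.5 in the CCL19-KI libraries. The CCL19-KI values lay close together and all were below the WT values, with a log2 difference of -1.73 (SE 0.38, limma adjusted p = 0.0066). *Dgat1* (119, 88.7 and 149.9 against 52.8, 42.6 and 39.6) differed by -1.36 (adjusted p = 0.0162) and *Lpin1* (456, 509 and 577 against 178, 389 and 226) by -1.03 (adjusted p = 0.0486). Of the 36 fits that left out 1 library, all 36 called *Dgat2* and *Agpat2*. *Dgat1* lost its call in 3 (WT replicate 3 and CCL19-KI replicates 2 and 3 of these groups, adjusted p up to 0.0858) and *Lpin1* in 26 (up to 0.16).

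*Gpam* overlapped between the unligatured ND groups (209, 294 and 371 against 156, 209 and 251). *Lpl* was 7566, 4578 and 9928 in the WT and 6074, 1833 and 2101 in the CCL19-KI libraries and *Cd36* 3721, 1927 and 3637 against 3008, 1050 and 1009, so that 1 CCL19-KI mouse overlapped the WT range in each. With 34 libraries, where 19.5% of all genes were called, *Lpl* (-1.60, adjusted p = 0.0332) and *Cd36* (-1.32, adjusted p = 0.0347) passed beside *Dgat2* (-3.04), *Agpat2* (-2.14) and *Dgat1* (-1.56), and *Lpin1* did not. The hepatocyte score of CCL19-KI replicates 1, 2 and 3 was 5.25, 10.5 and 10.7, against 1.64 to 1.76 in the WT libraries. The score of 6 exocrine pancreas markers was 0.044, 4.33 and 3.97, against at most 0.038. The part of these scores in the differences of *Lpl* and *Cd36* is not given here.

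The summed adipocyte markers were 10465 to 16979 in these WT and 4166 to 7410 in these CCL19-KI libraries. With their score as a covariate *Dgat2* (-1.66, adjusted p = 0.117), *Agpat2* (-0.97, adjusted p = 0.2), *Dgat1* (-0.27, adjusted p = 0.52) and *Lpin1* (-0.64, adjusted p = 0.427) did not pass. Hepatocyte markers summed to 131 to 1541 and 1106 to 29179, and with that score none of the 4 passed (adjusted p of 0.0608 for *Agpat2* to 0.272 for *Dgat1*). With the epididymis score *Dgat2*, *Agpat2* and *Dgat1* passed (adjusted p up to 0.0149) and *Lpin1* did not (0.05001). The part of either in these differences was not tested further.

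In unligatured 60% HFD mice, 16.8% of all genes (8.06% as lower) and 3 of the 9 were called, again synthesis genes that were lower in CCL19-KI mice. The groups did not overlap in 6 of the 9, beside 30.7% of all genes. *Agpat2* was 321, 239 and 162 in WT and 43.8, 60.3 and 135.5 in the libraries labelled CCL19-KI, a log2 difference of -1.69 (SE 0.38, limma adjusted p = 0.008). *Gpam* was 248, 292 and 249 against 81.5, 73.5 and 231 (-1.23, adjusted p = 0.0191), and *Dgat2* was 1193, 966 and 702 against 151, 346 and 614 (-1.55, adjusted p = 0.0376). In all 3 genes the highest value of the CCL19-KI group was that of the library against its label, and the groups did not overlap. *Agpat2* was called in all 36 fits that left out 1 library, whereas *Gpam* lost its call in 4 (adjusted p up to 0.0843) and *Dgat2* in 5 (up to 0.228), each time without 1 of these 6 mice.

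Without that library and its ND counterpart, all 5 synthesis genes passed in this comparison, where 17.8% of all genes were called. *Agpat2* then differed by -2.15 (SE 0.35, limma adjusted p = 6.4e-04), *Dgat2* by -2.02 and *Gpam* by -1.75, and *Dgat1* (-1.37, adjusted p = 0.019) and *Lpin1* (-1.16, adjusted p = 0.0436) joined them. The uptake genes did not pass (log2 differences of -0.05 to -0.76).

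Adipocyte markers summed to 8023 to 10171 in the WT and 3152 to 7460 in the CCL19-KI libraries. With this score as a covariate, in all 36 libraries, *Agpat2* was lower (-1.03, adjusted p = 0.044), whereas *Gpam* (-0.68, adjusted p = 0.155) and *Dgat2* (-0.70, adjusted p = 0.334) did not pass. Hepatocyte markers summed to 10117 to 41809 in the WT and to 919 to 1584 in the CCL19-KI libraries, and epididymis markers to at most 0.067 and to 309 to 9553. Smooth muscle markers (5) summed to 30.03 to 36.4 in the WT and to 431 to 704 in the CCL19-KI libraries. With the hepatocyte score as a covariate none of the 3 passed (adjusted p of 0.0831 to 0.126), nor with the epididymis score (0.0731 to 0.266).

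In unligatured 40% HFD mice, 0.0056% of all genes were called and the 9 genes had positive log2 differences of 0.07 to 1.24 that did not pass. *Lpl* was 1026, 3649 and 5150 in WT and 7586, 6327 and 5333 in CCL19-KI mice. The WT mouse with the lowest *Lpl* was the lowest of its group in all of the 9 genes but *Gpam* and was also that with the lowest summed adipocyte markers of its group (3623 of 3623 to 10267).

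In ligatured mice, none of the 9 genes passed between genotypes on any of the 3 diets with 36 libraries (1.03% of all genes on the ND, 0.0112% on either HFD). The log2 differences of the synthesis genes were -0.18 (*Lpin1*) to -0.02 (*Gpam*) on the 40% HFD. On the 60% HFD they were -0.14 (*Gpam*) to 0.46 (*Dgat2*). *Gpam* was 624, 454 and 397 in ligatured ND WT and 236, 150 and 221 in ligatured ND CCL19-KI mice, with no overlap (7 of the 9, beside 18.9% of all genes). It passed in 34 libraries (-1.27, SE 0.28, limma adjusted p = 0.0129), where 3.19% of all genes did. The adipocyte score was 8.26 to 8.98 in these CCL19-KI and 9.33 to 9.55 in these WT mice, without overlap. The scores of 7 skeletal muscle markers (3.08 to 5.52 against 0.861 to 1.08) and of 5 smooth muscle markers (3.30 to 8.91 against 2.47 to 3.21) did not overlap either. The part of the muscle scores was not tested, and no fit with the adipocyte score is given here for this call. *Dgat2* was 245, 260 and 493 against 244, 261 and 434 in these 2 groups, a log2 difference of -0.06 with a 95% interval of -1.10 to 0.98.

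**Figure D3:**
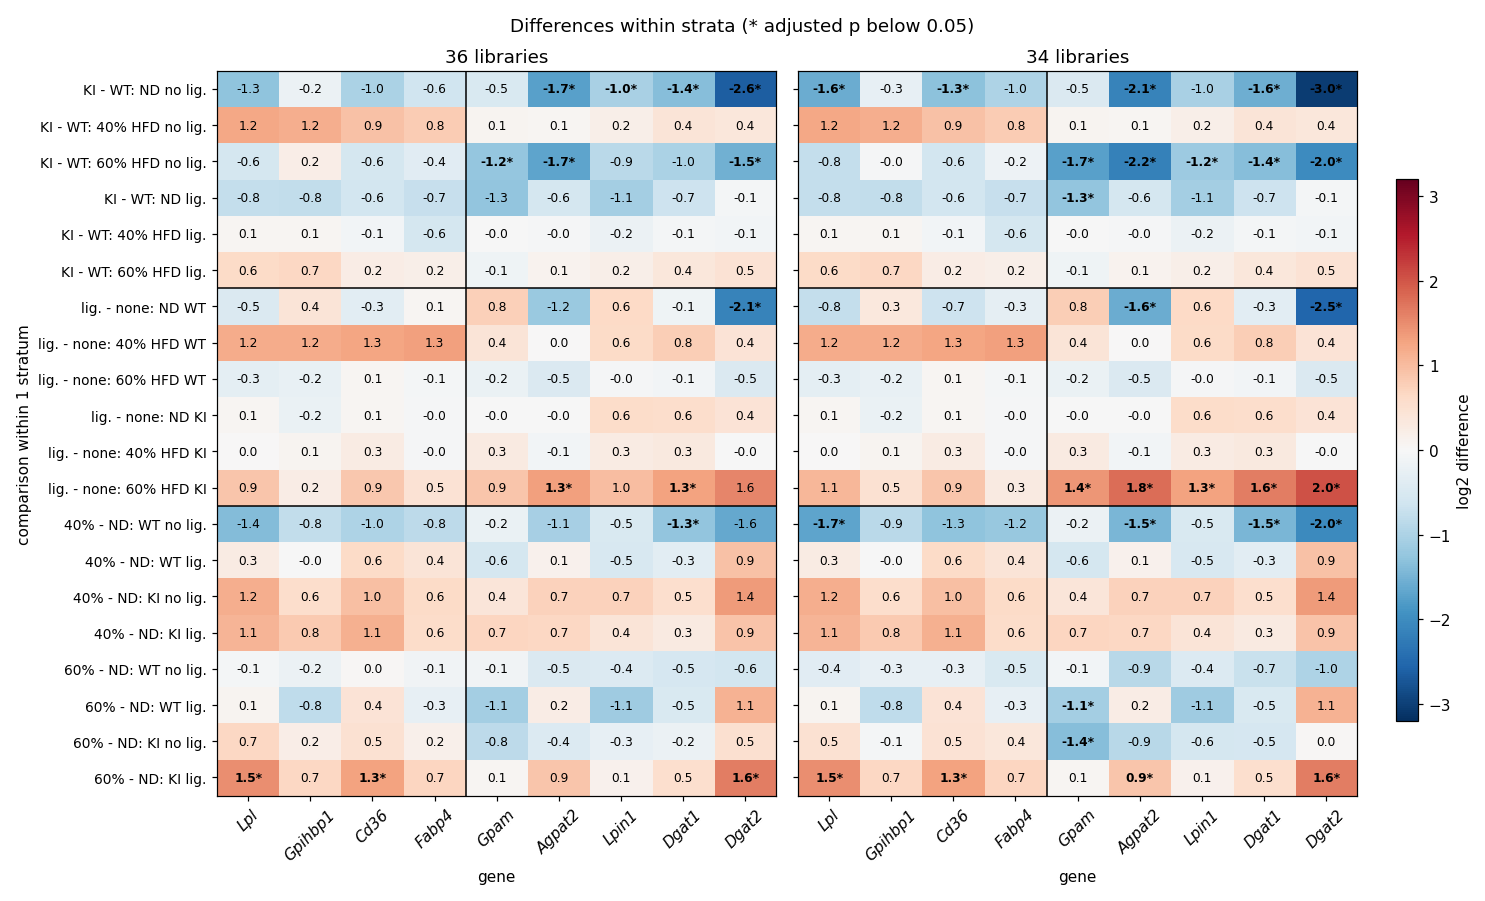
Log2 differences of the 9 genes (columns, uptake left and synthesis right of the line) in each comparison (rows), with 36 and with 34 libraries. Groups hold 3 mice, except that with 34 libraries the unligatured ND WT and 60% HFD CCL19-KI groups hold 2 each. Red is higher and blue lower in the first-named group, and a star marks a limma adjusted p below 0.05; the blue stars between genotypes stand in unligatured ND and 60% HFD mice, plus *Gpam* in ligatured ND mice with 34 libraries.

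Between the 60% HFD and the ND, averaged over genotype and ligature, 2 of the 9 genes passed while 18.6% of all genes did. *Cd36* was higher on the 60% HFD, with levels (lowest, median and highest) of 1650, 2740 and 4774 against 1009, 1999 and 3721 (12 mice each). The ranges overlapped, and the log2 difference was 0.56 (SE 0.20, limma adjusted p = 0.0475). *Gpam* was lower on the 60% HFD, with 73.5, 226 and 308 against 150, 244 and 624 and a log2 difference of -0.50 (SE 0.17, limma adjusted p = 0.0433). The medians of *Gpam* lay close together, and the highest values were those of the ND.

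Neither call was firm. With 34 libraries (15% of all genes) *Cd36* did not pass (0.48, adjusted p = 0.115) and *Gpam* did (-0.62, adjusted p = 0.0094). Of the 36 fits that left out 1 library, 13 called *Cd36* (adjusted p up to 0.0939) and 20 called *Gpam* (up to 0.0802). With the adipocyte score as a covariate the log2 difference of *Cd36* was 0.78 (adjusted p = 8.7e-04) and that of *Gpam* -0.34 (adjusted p = 0.104). The score had a median of 8.70 on the 60% HFD and 9.04 on the ND, and the hepatocyte score 9.34 and 5.71. With the hepatocyte score, *Cd36* passed (0.82, adjusted p = 0.0167) and *Gpam* did not (-0.50, adjusted p = 0.119), whereas with the epididymis score *Cd36* did not (0.53, adjusted p = 0.0635) and *Gpam* did (-0.52, adjusted p = 0.0405). The score of 8 markers of lipid-associated macrophages (such as *Trem2* and *Gpnmb*) had a median of 5.83 (4.12 to 7.18) on the 60% HFD and 3.54 (2.92 to 6.74) on the ND, and its part was not tested.

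The ratio of *Gpam* to *Cd36* within a library, given as a description, had a median of 0.146 on the ND, 0.103 on the 40% HFD and 0.0632 on the 60% HFD. The 60% HFD libraries lay between 0.0293 and 0.114 and the ND libraries between 0.052 and 0.275. As *Cd36* was called higher and *Gpam* lower on the 60% HFD in these same libraries, a lower ratio there follows from those calls. It adds no support to them.

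The other 7 genes did not pass between the 60% HFD and the ND with 36 libraries and no covariate. *Dgat2* was 738 ± 299 against 604 ± 607 (log2 difference 0.66, adjusted p = 0.0647), *Lpl* 6479 ± 2527 against 4703 ± 2383 (0.54, adjusted p = 0.0996) and *Lpin1* 346 ± 99.8 against 515 ± 326 (-0.42, adjusted p = 0.0927). For *Gpihbp1*, *Fabp4*, *Agpat2* and *Dgat1* the log2 differences were -0.16 to 0.12. With the adipocyte score as a covariate, *Lpl* (0.84, limma adjusted p = 5.6e-04) and *Dgat2* (0.90, adjusted p = 0.0059) passed. Both also passed with the hepatocyte score (adjusted p = 0.0347 and 0.0383). In 34 libraries with the adipocyte score, *Lpl* (adjusted p = 0.0018), *Dgat2* (0.0428) and *Gpam* (-0.47, adjusted p = 0.0348) passed. The shares over all genes are not given for these fits.

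Between the 40% HFD and the ND, none of the 9 passed while 9.21% of all genes did. *Cd36* (2913 ± 954 against 2176 ± 930) had the largest log2 difference, 0.43 (adjusted p = 0.157), and was the 1 gene with an unadjusted p below 0.05 (26.5% of all genes). With 34 libraries (7.9% of all genes) none passed either, and the log2 difference of *Cd36* was 0.35 (adjusted p = 0.271). Between the 2 high-fat diets none passed with 36 libraries (0.745% of all genes, and 2 of the 9 at an unadjusted p below 0.05, beside 13.2%). With 34 libraries (1.52%), *Gpam* was lower on the 60% HFD than on the 40% HFD (-0.70, adjusted p = 0.0198).

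Within genotype and ligature, 4 of 72 tests of a high-fat diet against the ND passed (5.02% over all genes), 22 by the study's criteria (14.1%) and 10 with 34 libraries (6.62%). Of the 4 calls with 36 libraries, 3 were in ligatured CCL19-KI mice on the 60% HFD, where 12.8% of all genes were called and the groups of 5 of the 9 did not overlap, beside 36.9% of all genes. *Lpl* was 9583, 5131 and 11726 on the 60% HFD and 2807, 2871 and 3310 on the ND. All 60% HFD values were above all ND values (log2 difference 1.48, SE 0.47, limma adjusted p = 0.0398). *Cd36* was 4013, 2765 and 4774 against 1629, 1226 and 1858 (1.28, adjusted p = 0.0346), likewise without overlap.

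*Dgat2* was 921, 817 and 1086 against 244, 261 and 434 (1.63, adjusted p = 0.0373) in the same comparison, also without overlap. With 34 libraries (19.6% of all genes) *Agpat2* passed too (0.90, adjusted p = 0.0446). Adipocyte markers summed to 6249 to 12503 on the 60% HFD and 5514 to 8999 on the ND. With the adipocyte score as a covariate the adjusted p of *Lpl*, *Cd36* and *Dgat2* was 0.0085, 0.0148 and 0.0273, and with the hepatocyte score 0.0163, 0.0142 and 0.0247. With the epididymis score none of the 3 passed (0.0629, 0.0548 and 0.0595), and epididymis markers summed to 0.555 to 1.62 on the 60% HFD and 14.6 to 2208 on the ND. The lipid-associated macrophage score was 4.60 to 7.18 on the 60% HFD and 3.63 to 3.71 on the ND, without overlap. The score of 7 skeletal muscle markers was 1.65 to 2.72 on the 60% HFD and 3.08 to 5.52 on the ND, also without overlap. Smooth muscle markers summed to 39.8 to 73.8 on the 60% HFD and 73.5 to 3149 on the ND. The part of these scores and sums was not tested. Each call was lost in 4 or 5 of the fits that left out 1 library, all among the 6 mice compared, with an adjusted p of up to 0.155.

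The remaining call was *Dgat1*, lower in unligatured WT mice (6.03% of all genes) on the 40% HFD (22.7, 63.0 and 77.2) than on the ND (119, 88.7 and 149.9; log2 difference -1.26, adjusted p = 0.0409). None of the 9 passed on the 40% HFD in ligatured WT (0.207% of all genes), unligatured CCL19-KI (0%) or ligatured CCL19-KI mice (4.92%), or on the 60% HFD in unligatured WT (3.41%), ligatured WT (2.57%) or unligatured CCL19-KI mice (10.2%). Without 40% HFD replicate 1, the lowest library, the adjusted p of *Dgat1* was 0.4 in that comparison. Adipocyte markers summed there to 3623 to 10267 on the 40% HFD and 10465 to 16979 on the ND, and hepatocyte markers to 9523 to 34158 and 131 to 1541, in both cases without overlap. *Dgat1* did not pass with the adipocyte score (-0.53, adjusted p = 0.196) or the hepatocyte score (-0.75, adjusted p = 0.806) as a covariate and passed with the epididymis score (-1.39, adjusted p = 0.0378). In 34 libraries (8.07% of all genes) *Lpl* (-1.69), *Agpat2* (-1.46) and *Dgat2* (-2.03) passed beside *Dgat1* (-1.45). *Gpam* was lower on the 60% HFD in ligatured WT (-1.08, adjusted p = 0.0309; 4.75% of all genes) and in unligatured CCL19-KI mice (-1.37, adjusted p = 0.0136; 8.51%) with 34 libraries.

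Whether the response to diet differed between genotypes was tested directly. For the 40% HFD, the log2 difference from the ND was more positive in CCL19-KI than in WT mice for all 9 genes, by 0.82 (*Fabp4*) to 1.69 (*Lpl*, SE 0.47). None passed after adjustment (adjusted p of 0.252 to 0.462), 8 had an unadjusted p below 0.05 (11% of all genes), and 0 of all genes passed. With 34 libraries the differences were 0.91 (*Gpam*) to 1.84 (*Lpl*), all 9 had an unadjusted p below 0.05 (18.2% of all genes) and none passed after adjustment (adjusted p of 0.0503 for *Agpat2* to 0.176 for *Fabp4*; 0.523% of all genes). For the 60% HFD the 9 values were 0.20 (*Gpam*) to 1.06 (*Lpl*) and none passed (adjusted p of 0.0998 to 0.764; 0.476% of all genes). With 34 libraries they were -0.07 (*Gpam*) to 1.12 (*Lpl*), and none passed (adjusted p of 0.136 to 0.904; 0.62% of all genes).

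Ligature, averaged over diet and genotype, did not move any of the 9 genes past the threshold, where 0.325% of all genes passed. *Lpin1* (528 ± 266 against 362 ± 126, n = 18 each; log2 difference 0.51, SE 0.15, adjusted p = 0.11), *Dgat1* (0.45, adjusted p = 0.153), *Gpam* (0.35, adjusted p = 0.217) and *Cd36* (0.36, adjusted p = 0.268) had an unadjusted p below 0.05, as did 16.2% of all genes. No gene of the 9 passed in 34 libraries either (0.358%). The adipocyte score had a median of 9.28 in ligatured and 8.81 in unligatured mice.

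Within diet and genotype, 3 of 54 tests of the ligature passed (2.29% over all genes), and they went in opposite directions. By the study's criteria 14 passed (9.8%), and with 34 libraries 7 (3.94%). In WT mice on the ND (6.73% of all genes), *Dgat2* was 245, 260 and 493 with ligature against 1806, 797 and 1874 without, a log2 difference of -2.14 (SE 0.51, limma adjusted p = 0.0154). The groups did not overlap (3 of the 9, beside 29.5% of all genes), and the call was lost without replicate 1 or 3 of the unligatured or 1 or 2 of the ligatured mice (adjusted p up to 0.108). With 34 libraries (10.8%) it was -2.54 (adjusted p = 0.0043), and *Agpat2* was also lower (147, 134 and 145 against 405 and 450.2; -1.58, adjusted p = 0.0068).

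The adipocyte markers of these ligatured ND WT mice summed to 10570 to 13703, within the 10465 to 16979 of the unligatured ones, and with the adipocyte score as a covariate *Dgat2* differed by -2.12 (adjusted p = 0.0041). Hepatocyte markers summed to 4319 to 13879 with and 131 to 1541 without ligature, and with that score the adjusted p was 0.129, whereas it was 0.0074 with the epididymis score. In the same mice *Gpam* was 624, 454 and 397 with and 209, 294 and 371 without ligature, a log2 difference of 0.77 that did not pass. The ratio of *Dgat2* to *Dgat1* was 1.95 to 5.06 in ligatured and 8.99 to 15.2 in unligatured ND WT mice.

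None of the 9 passed in CCL19-KI mice on the ND (1.37% of all genes), in either genotype on the 40% HFD or in WT mice on the 60% HFD (0% each). In CCL19-KI mice on the 60% HFD (5.66%), *Dgat1* (108, 67.7 and 124.5 with ligature against 24.8, 37.3 and 64.9; log2 difference 1.28, adjusted p = 0.0401) and *Agpat2* (198, 169 and 173 against 43.8, 60.3 and 135.5; 1.32, adjusted p = 0.0416) were higher with ligature. The call of *Dgat1* was lost in 4 and that of *Agpat2* in 5 of the fits without 1 of these 6 mice (adjusted p up to 0.174). With 34 libraries (9.82%) all 5 synthesis genes were higher, by 1.29 (*Lpin1*, adjusted p = 0.0374) to 2.03 (*Dgat2*, adjusted p = 0.0195), and no uptake gene passed. Adipocyte markers summed to 6249 to 12503 with and 3152 to 7460 without ligature, and with that score as a covariate *Dgat1* (0.34, adjusted p = 0.29) and *Agpat2* (0.66, adjusted p = 0.245) did not pass in 36 libraries. Hepatocyte markers (2896 to 21488 with and 919 to 1584 without ligature), epididymis markers (0.555 to 1.62 and 309 to 9553) and smooth muscle markers (39.8 to 73.8 and 431 to 704) did not overlap between these groups. The adjusted p of *Dgat1* and *Agpat2* was 0.0618 and 0.117 with the hepatocyte and 0.17 and 0.277 with the epididymis score.

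A test of whether the ligature difference itself differed between genotypes was added after these values were seen. On the ND it passed for *Dgat2*, at 2.58 on the log2 scale (CCL19-KI minus WT, SE 0.72, limma adjusted p = 0.0278; 7.59% of all genes). *Dgat2* had been lower with ligature in WT mice, and in CCL19-KI mice it was 244, 261 and 434 with and 544, 112 and 183 without. With 34 libraries *Agpat2* passed as well on the ND (1.58, adjusted p = 0.0394; 7.99%), and on the 60% HFD *Agpat2* did (2.26, adjusted p = 0.0202; 1.78%).

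In 34 libraries, the difference between the 60% HFD and the ND was more positive in ligatured than in unligatured mice for *Agpat2* (1.45, SE 0.33, limma adjusted p = 0.0153) and *Dgat2* (1.84, SE 0.49, adjusted p = 0.0323), where 5.17% of all genes passed. With 36 libraries no gene of the 9 passed that limma test and 0% of all genes did, while 2 of the 9 and 14.3% of all genes had an unadjusted p below 0.05.

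Across the 36 libraries, the levels of the 9 genes were positively correlated to different degrees. Pearson's r of log2 levels over the 36 pairs of genes was 0.208 to 0.941 with a median of 0.577. The adjusted p, from 100000 permutations, was below 0.05 in 26 pairs by r and in 27 by Spearman's rho. The median r was 0.738 within the 4 uptake genes (6 of 6 pairs), 0.639 within the 5 synthesis genes (8 of 10) and 0.435 between them (12 of 20). Libraries share group and tissue composition, and within groups the median over all pairs was 0.512. With 34 libraries the median r was 0.791 within the uptake genes, 0.638 within the synthesis genes and 0.463 between them.

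*Lpl* and *Cd36*, both uptake genes, were the closest pair (r = 0.941, rho = 0.876; 0.902 without the 2 libraries farthest from the median of *Lpl* and 0.924 within groups). Of the synthesis genes, *Agpat2* and *Dgat2* were closest (r = 0.853, rho = 0.893; 0.810 and 0.771). *Gpam* and *Dgat2*, the first and a last enzyme of the pathway, had r = 0.211, which became 0.0026 without the 2 farthest libraries.

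Each of the 9 genes went along with the adipocyte marker score, from r = 0.562 (*Dgat2*) to 0.889 (*Dgat1*), with an adjusted permutation p of at most 4.3e-04. Within groups r was 0.327 (*Lpin1*) to 0.895 (*Dgat1*).

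**Figure D4:**
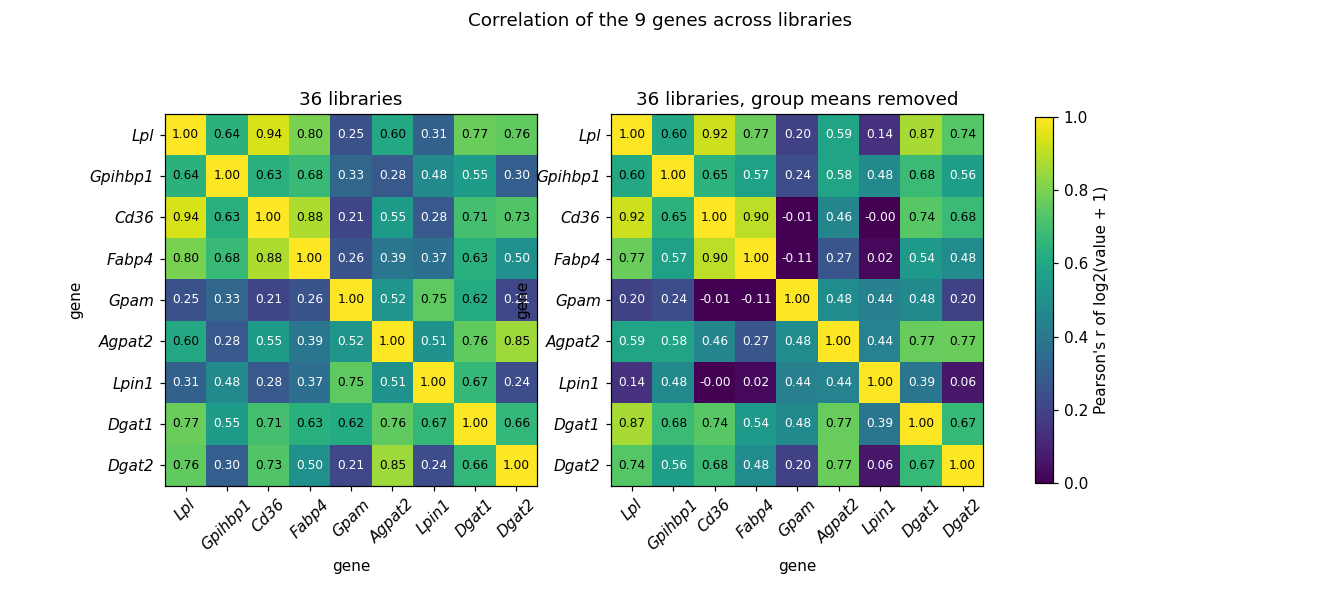
Pearson's r of log2(value + 1) between the 9 genes across the 36 libraries and within groups (deviations from the 12 group means). Values run from 0.208 to 0.941 across libraries, and *Lpl* and *Cd36* have the highest r in both panels (0.941 and 0.924).

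The tested genes whose log2 levels were most like each of the 9 over the 36 libraries were *Apmap* for *Lpl* (r = 0.937), *Oxct1* for *Cd36* (0.944), *Fam213a* for *Fabp4* (0.905) and *Hrct1*, *Car4* and *Rbp7* for *Gpihbp1* (0.807, 0.799 and 0.776). For the synthesis genes they were *Ces1d* for *Gpam* (0.892), *Slc25a17* for *Agpat2* (0.885), *Fam214a* for *Lpin1* (0.847), *Lipe*, one of the adipocyte markers, for *Dgat1* (0.928) and *Kctd3* for *Dgat2* (0.922).

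Other genes of the pathway were taken from a list of 43, of which 41 were in the table and 40 were tested. Between the 60% HFD and the ND, 14 were higher and 2 lower (40% against 18.6% of all genes), and with 34 libraries 12 were higher and 2 lower (35% against 15%). *Fabp5*, a fatty acid binding protein related to FABP4, was 148 ± 48.8 against 70.1 ± 90.3 (log2 difference 1.65, limma adjusted p = 2.4e-04). *Aqp7*, the glycerol channel of adipocytes, differed by 1.00 (adjusted p = 0.0023) and *Gpd1*, which makes glycerol 3-phosphate, by 0.88 (adjusted p = 0.0079). The acyltransferases *Mogat2* (1.01, adjusted p = 0.0044) and *Mogat1* (-0.90, adjusted p = 0.0207), which make diacylglycerol from monoacylglycerol, went in opposite directions at levels below 14 normalised CPM.

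The fatty acid transporter and acyl-CoA synthetase *Slc27a2* (2.57, adjusted p = 0.0184), abundant in liver, differed most on the 60% HFD, beside the higher hepatocyte score of that diet. Between the 40% HFD and the ND, 7 of the 40 genes were higher (17.5% against 9.21%) and none lower. They included *Slc27a2* (3.08), *Aqp7* (0.77, adjusted p = 0.0222), *Acsl5* (0.62), *Fabp5* (0.80) and the lipoprotein lipase inhibitors *Angptl4* (386 ± 84.8 against 266 ± 121; 0.59, adjusted p = 0.0103) and *Angptl8* (0.89, adjusted p = 0.037). With 34 libraries 5 were higher (12.5% against 7.9%), and *Fabp5* (0.60, adjusted p = 0.0907) and *Angptl8* (0.76, adjusted p = 0.0745) did not pass. The hepatocyte score had a median of 9.46 on the 40% HFD and 5.71 on the ND. Its part in the differences of the pathway genes was not tested on either high-fat diet. *Pck1*, which serves glycerol 3-phosphate supply, was lower on the 60% than on the 40% HFD (1445 ± 895 against 2805 ± 1090; -1.26, adjusted p = 0.0371).

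Between genotypes, none of the 40 passed with 36 libraries. With 34 libraries 3 were lower in CCL19-KI mice (7.5% against 7.35% of all genes), namely *Gpat3* (59.9 ± 27.0 against 88.6 ± 42.9; -0.66, adjusted p = 0.0361), *Acsl1* (-0.56, adjusted p = 0.0235) and *Gpd1* (-0.51, adjusted p = 0.0448). These encode another glycerol 3-phosphate acyltransferase, the main acyl-CoA synthetase of adipocytes and glycerol 3-phosphate dehydrogenase. In unligatured ND mice with 36 libraries 11 were lower and 1 higher (16.6% of all genes called), and in unligatured 60% HFD mice 8 were lower and 1 higher (16.8%). With 34 libraries the numbers were 12 and 1 (19.5%) and 8 and 3 (17.8%). None passed for ligature averaged over the groups.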

How the data were processed

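According to the authors, directional libraries of rRNA-depleted eWAT RNA were sequenced on a DNBSEQ-G400, and reads were trimmed with Trimmomatic 0.38, aligned with Bowtie2 and counted per gene with RSEM 1.3.0. The build is mm10 (GRCm38) in the methods and GRCm39 in the submitters' processing notes, and the annotation release is not given in the sources used here. The deposited signal values are CPM normalised by the authors with edgeR. Each value was a whole multiple of its library's value of 1 read (100% of values, tolerance 0.01), so whole reads were recovered. Of 24750 gene IDs, 24634 matched GENCODE M21, from which symbols and coordinates were taken.

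Values were analysed as log2(value + 1). The 17852 genes that reached 1 normalised CPM in 3 or more libraries were tested with limma 3.58.1 (lmFit, eBayes with trend) in R 4.3.3, in 1 fit of the 12 groups. P-values were Benjamini-Hochberg adjusted over all genes of a comparison, and covariates were mean log2 levels of marker lists. edgeR 4.0.16 on the recovered reads was an alternative. Correlations used 100000 permutations (scipy 1.17.1), and the smallest p they can give is 1e-05. The fitting was tested on simulated data. Whether libraries of a group came from separate extractions is not stated beyond 1 mouse each, and p-values measure the spread between these mice. No library repeated another (chi-square per degree of freedom 15.3 to 333 between libraries of a group).

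The 9 genes, lists and tests were chosen with earlier results of these data known. Named are the 9 genes, the pathway genes called in averaged comparisons (at most 6 each, with the largest differences) and the genes most correlated with each of the 9. The pathway list leaves out the 9. The fit of 34 libraries, that fit with the adipocyte score, and the difference of ligature effects between genotypes were added after the values were seen. Same-numbered libraries did not pair: the correlation of their deviations from the group means was -0.66 to 0.71 (median -0.015). Proteins were not used here, nor promoters of the other 5 genes.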

Additional observations from a re-analysis of the deposited data

Results flagged for a closer look

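*Dgat2* encodes an enzyme of the last step of triglyceride synthesis. Its log2 difference between ligatured and unligatured ND mice differed between CCL19-KI and WT mice, by the test of that difference itself (2.58 on the log2 scale, limma adjusted p = 0.0278, 3 mice in each of 4 groups). The ligature difference was -2.14 in WT mice (lower with ligature) and 0.44 in CCL19-KI mice. The test was added after the values were seen. *Dgat2* was 797 to 1874 in unligatured ND WT mice and 112 to 544 over the other ND groups. That WT group, which includes a library against its label, also enters the *Dgat2* calls for genotype and for ligature on the ND. These calls are therefore not independent of each other. The adjusted p was 0.0144 in 34 libraries (2.98), 0.034 with the adipocyte score as a covariate (2.16), 0.024 with the epididymis score (3.03) and 0.491 with the hepatocyte score (1.49), and it was above 0.05 in 8 of the 36 fits that left out 1 library (up to 0.105), each time without 1 of the 12 ND mice. Hepatocyte markers summed to 131 to 1541 in unligatured and 4319 to 13879 in ligatured ND WT mice, and to 1106 to 29179 and 1749 to 9161 in the CCL19-KI mice. Their part in this difference was not tested beyond that fit.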

How the results depend on the processing

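With 3 mice a group, small differences cannot be resolved, and reads per gene (at least 108 for the 9 genes) are not the limit. How many synthesis genes passed for genotype depended on the 2 libraries against their labels, on other single libraries and on weights and covariates. These are given next, and the cause was not tested.

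Counts of calls among the 9 genes changed as follows. Shares over all genes stand above only for the 36 and 34 libraries and the study's criteria. For the other settings they are not given, so those counts cannot be set against all genes. The estimation of sample quality weights stopped before it reached its tolerance, so counts with weights come from weights that had not converged. For the 60% HFD against the ND (2 calls) they were 1 with a pseudocount of 5, with the epididymis score or in 34 libraries, 0 with no filter, by edgeR or in the 18 unligatured mice, 5 with sample quality weights, and 4 in the 18 ligatured mice or in 34 libraries with the adipocyte score. With the adipocyte or the hepatocyte score in 36 libraries, *Lpl* and *Dgat2* passed there beside *Cd36*, and *Gpam* did not. For the 40% HFD against the ND (0) the counts were 2 with weights or in ligatured mice and 1 with the adipocyte score (36 or 34 libraries), and between the high-fat diets (0) 2 with the adipocyte score (36 or 34 libraries) and 1 in 34 libraries. For genotype (0) they were 1 with the replicate number as a block (*Agpat2*, adjusted p = 0.0371), by edgeR or with the epididymis score, 6 with weights, 5 in 34 libraries and 2 with the adipocyte score as well. For ligature (0) weights gave 3.

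Within diet and ligature, genotype calls (7 of 54) were 19 with weights, 0 with the hepatocyte, 4 with the epididymis and 2 with the adipocyte score, 11 in 34 libraries, 4 with separate fits of ligatured and unligatured mice, and 18 by the study's criteria for differential expression. Ligature calls (3 of 54) were 1 with quantile normalization, 14 with weights, 0 with the hepatocyte score, 7 in 34 libraries and 14 by the study's criteria. Diet calls (4 of 72) were 2 with no filter or by edgeR, 35 with weights, 10 in 34 libraries, 9 with the adipocyte score as well, 7 with separate fits and 22 by the study's criteria. Differences of diet effects between genotypes (0) were 17 with weights. Those between ligatured and unligatured mice (0) were 7 with weights and 2 in 34 libraries with or without the adipocyte score. Differences of ligature effects between genotypes (1) were 11 with weights, 0 with the hepatocyte score and 3 in 34 libraries. The replicate block changed no other count by over 1.5 times; 16 of 36 libraries correlated best with one of their own number.

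Leaving out 1 library gave 0 to 4 calls for the 60% HFD against the ND and 0 to 1 for the 40% HFD, between the high-fat diets, for ligature and for differences of ligature effects. It gave 0 to 2 for genotype, where the count moved from 0 in 7 of the 36 fits. Among these were the fits without 60% HFD CCL19-KI replicate 3 (2 calls) and without ND WT replicate 2 (1 call), and the rest left out libraries that matched their label. It gave 4 to 10, 1 to 7 and 1 to 11 for genotype, ligature and diet within strata, and 0 to 6 and 0 to 0 for differences of diet effects between genotypes and between ligatured and unligatured mice.

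Of the averaged log2 differences of single genes, 2157 of the values under alternatives kept direction and side of the threshold, 61 passed it newly, 52 lost it and 97 turned, all of them in differences that were not called. Those that turned under 60% HFD against ND were *Gpihbp1* (0.11 with weights, 0.14 with the adipocyte score, 0.11 in 34 libraries with it, 0.013 in unligatured mice), *Agpat2* (-0.45 in unligatured mice, -0.084 quantile normalized, -0.0006 with the epididymis score, -0.16 in 34 libraries), *Dgat1* (0.10 with the adipocyte score, 0.047 in 34 libraries with it, 0.028 in ligatured mice) and *Dgat2* (-0.035 in unligatured mice). Under 40% HFD against ND they were *Gpam* (-0.11 with weights, -0.019 with the adipocyte score, -0.12 quantile normalized), *Lpin1* (-0.026 with weights, -0.023 with the adipocyte score, -0.003 in 34 libraries with it, -0.19 quantile normalized, -0.0037 with the epididymis and -0.21 with the hepatocyte score, -0.054 in ligatured mice), *Agpat2* (-0.051 in 34 libraries with the adipocyte score, -0.15 in unligatured mice, -0.016 quantile normalized, -0.027 with the epididymis score), *Fabp4* (-0.016 in 34 libraries with the adipocyte score, -0.12 in unligatured mice), *Dgat1* (0.015 with the hepatocyte score) and, in unligatured mice, *Lpl* (-0.12), *Gpihbp1* (-0.11), *Cd36* (-0.015) and *Dgat2* (-0.13). Between the high-fat diets they were *Dgat1* (-0.017 with weights, -0.016 with the hepatocyte score, -0.057 in 34 libraries), *Gpihbp1* (0.0904 with the adipocyte score, 0.062 in 34 libraries with it, 0.12 in unligatured mice), *Fabp4* (0.21, 0.40 and 0.14 likewise, 0.16 quantile normalized), *Agpat2* (0.23 with the adipocyte score, 0.082 in 34 libraries with it, 0.027 with the epididymis score, 0.16 in ligatured mice) and *Cd36* (-0.021 in ligatured mice). For genotype, with the adipocyte score in 36 and in 34 libraries, they were *Lpl* (0.31 and 0.32), *Cd36* (0.14 and 0.18) and *Fabp4* (0.045 and 0.14), and in ligatured mice *Gpihbp1* (-0.0204) and *Dgat2* (0.11). For ligature they were, with the adipocyte score, *Lpl* (-0.20 in 36 and -0.29 in 34 libraries), *Gpihbp1* (-0.0055 in 36), *Cd36* (-0.077 in 34) and *Fabp4* (-0.16 in 34), and *Dgat2* (0.0084 quantile normalized, 0.015 with the hepatocyte score). Leaving out 1 library also turned *Gpihbp1* (-0.11 to 0.052) and *Agpat2* (-0.059 to 0.14) on the 60% HFD, *Gpam* (-0.0069 to 0.13) and *Lpin1* (-0.098 to 0.12) on the 40% HFD, *Cd36* (-0.015 to 0.21), *Agpat2* (-0.18 to 0.018) and *Dgat1* (-0.10 to 0.12) between the high-fat diets, and *Agpat2* (-0.14 to 0.0085) and *Dgat2* (-0.12 to 0.075) for ligature.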
